A study of Mus musculus with 40 samples.

Results

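Colonic epithelial cells were compared 48 days after mice received the protozoan Tritrichomonas musculis (T.mu), a flagellate that lives in the lumen of the mouse gut, with cells from mice that received none. The comparison comprises 8 of the 40 libraries of the study, chosen by their labels: 4 libraries labelled Epith TM with 48 days and 4 labelled Epith C-L with 48 days. The T.mu mice had each been given 2000000 sorted protozoa, and the control mice carried the label none for the inoculum. Each arm held litters 1 to 4, and the litter number is used as the replicate number. Strain, sex, age and the way the epithelial cells were isolated are not given in the sources used here. The study design names 3 mice per group, so that the 4 libraries per arm came from separate mice rests on the litter labels. P-values of the main gene tests in epithelium rest on the spread between libraries within groups. That spread was estimated over all 20 epithelial libraries, not over these 8 alone. Libraries of the same cells at days 3 and 14 (3 per arm and day) and of total colonic tissue at day 48 (4 per arm) are set beside the comparison where stated.

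The colonic epithelium is a single layer of absorptive colonocytes and mucus-secreting goblet cells, with few hormone-producing enteroendocrine cells and chemosensory tuft cells, and lymphocytes lie between its cells. Interferons bind receptors on epithelial cells and act through transcription factors on genes whose promoters often carry an interferon-stimulated response element. Their targets include sensors and restriction factors for viruses, and genes of antigen presentation by MHC class I. Interferon gamma in addition induces genes of MHC class II. Type 2 cytokines, released after tuft cells sense helminths or protozoa, are known to induce a separate set of genes in epithelium, among them the goblet cell product Retnlb and gasdermin C genes.

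At day 48, 30 of 10119 genes tested (0.296%) differed between T.mu and control epithelium at an adjusted p under 0.05, by edgeR's quasi-likelihood test with Benjamini-Hochberg adjustment over all genes tested. Of these, 28 (0.277%) rose with T.mu and 2 (0.0198%) fell. Interferon-induced genes made up most of the risen genes: 15 belonged to the type I interferon list, led by the oligoadenylate synthetase-like gene Oasl2 (6.24-fold higher, log2 2.64 ± 0.32 SE, n = 4 per arm). Beside them rose Cd74, the invariant chain of MHC class II, 3 gasdermin C genes, the secreted lectin gene Reg4, the surface protein genes Ly6a and Cd177, and the lipid enzyme genes Pla2g4c and Pnliprp2. The collagen gene Col8a1 and the matricellular gene Ccn3 fell. At an unadjusted p under 0.05 there were 462 genes (4.57%). The count was 14 when control replicate 3 was left out, and 22 to 28 when any 1 of the other 7 libraries was.

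In 27 of the 30 genes the levels of the T.mu and control libraries did not overlap. The exceptions were Pla2g4c, Cd177 and Reg4. Over all genes tested, all 4 T.mu libraries exceeded all 4 controls for 211 (2.09%) and were below all 4 for 196 (1.94%). Levels are given as CPM, each library's mouse counts rescaled to a common total, after scaling by the trimmed mean of M-values (TMM), given for replicates 1, 2, 3 and 4 in that order.

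**Figure D1:**
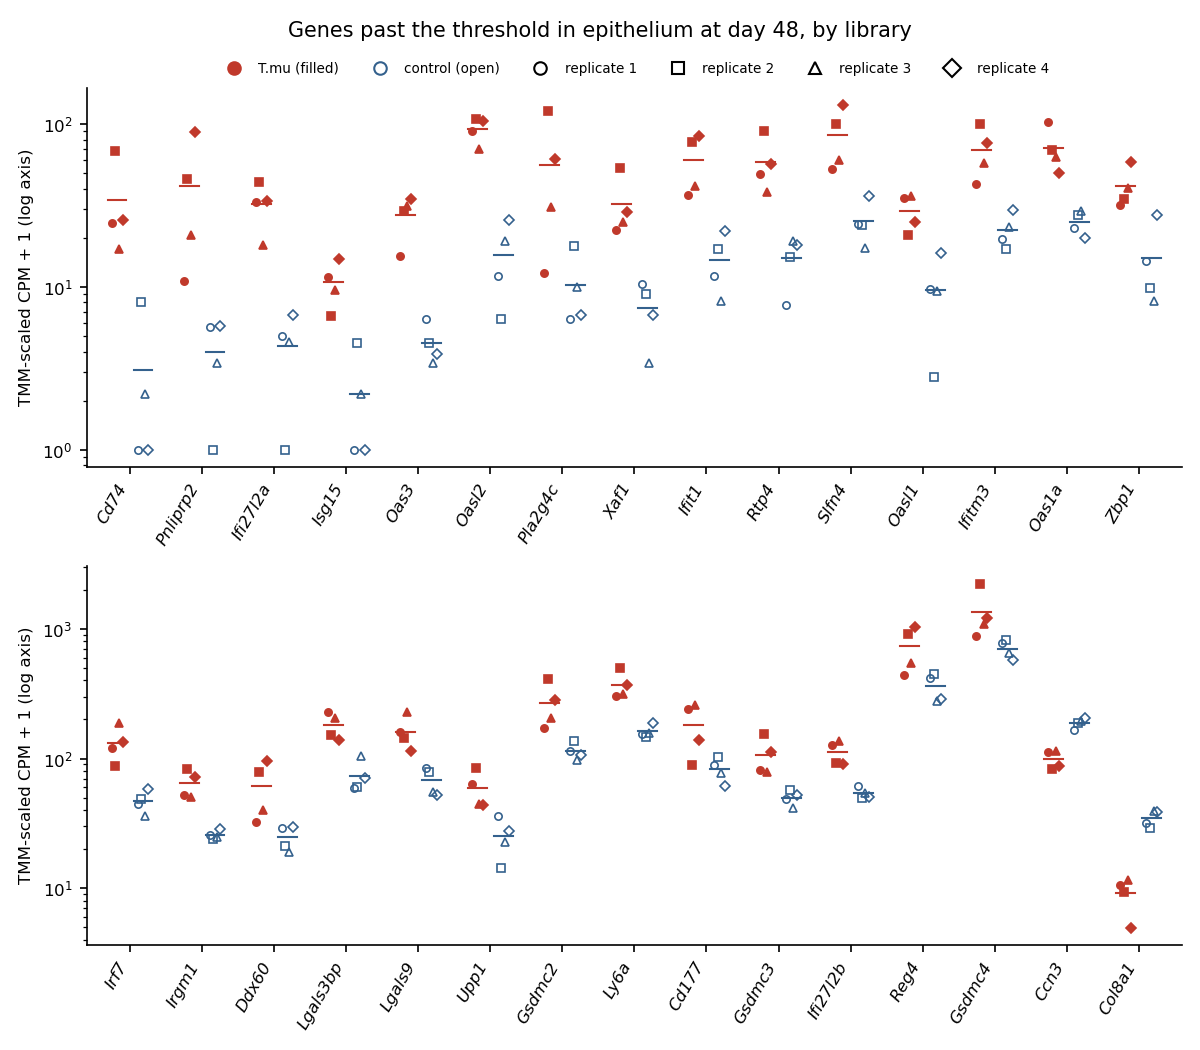
TMM-scaled CPM + 1 on a log axis for the 30 genes past the threshold, ordered by log2 fold change, with T.mu libraries filled and control libraries open, replicate numbers as marker shapes and horizontal lines at the means. Filled and open markers do not overlap for 27 genes, and overlap for Pla2g4c, Cd177 and Reg4.

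The labelled epithelial cells carried epithelial markers at high levels. Epcam, an epithelial adhesion molecule, had 1052, 1001.4, 1112 and 814 CPM in T.mu libraries and 909, 909, 942 and 986 CPM in control libraries. Markers of other cells were low but not all absent. The macrophage gene C1qa was at 0 in all 8 libraries, and the neutrophil genes S100a8 and S100a9 and the B cell gene Cd79a were at or below 2.00 CPM in all 8. The plasma cell genes Igha and Jchain reached 24.02 and 11.5 CPM with T.mu and 8.41 and 5.31 CPM in controls. The fibroblast gene Col3a1 reached 9.92 CPM with T.mu and 9.01 CPM in controls, and the smooth muscle gene Myh11 4.67 CPM with T.mu and 13.3 CPM in controls. Summed levels of 16 epithelial markers were 8214 to 12766 CPM with T.mu and 8354 to 10421 CPM in controls. Summed levels of T cell and intraepithelial lymphocyte markers were 97.8 to 173 CPM with T.mu (31 of 33 markers with counts) and 60.1 to 82.4 CPM in controls (28 of 33), and did not overlap. Among the defining T cell markers, Cd8a had 1.97, 9.35, 0.534 and 4.96 CPM with T.mu and was at 0 in the 4 control libraries. Cd3g had 3.62, 5.61, 1.07 and 4.96 CPM with T.mu against 0 in the 4 controls. Cd3e (0.534 to 8.41 CPM with T.mu, 0 to 2.66 CPM in controls) and Cd3d (0 to 3.97 and 0 to 2.66 CPM) overlapped. Trdc overlapped too, with a lower mean with T.mu (1.19 CPM) than in controls (1.91 CPM). Only 3 members of that list passed the filter on low counts and none of them the test. In such bulk samples, fewer cells of a type and less RNA per cell cannot be told apart.

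The 4 T.mu libraries were not alike, and replicates 2 and 4 stood apart from 1 and 3. Mitochondrially encoded genes, both ribosomal RNAs included, took 12.6%, 31.3%, 15.8% and 41.6% of the mouse counts in T.mu libraries against 31.5%, 29.4%, 29.95% and 36.6% in control libraries. The ribosomal RNA entry CT010467.1 took 25.1%, 9.02%, 23.1% and 9.34% with T.mu and 9.80% to 14.0% in controls. Malat1, a nuclear long non-coding RNA, had 492, 1568, 624 and 1731 CPM with T.mu and 789 to 1102 CPM in controls. Chi-square values per degree of freedom were 6.86 between T.mu replicates 1 and 3 and 8.76 between 2 and 4, but 27.0 to 61.3 between the other T.mu pairs, against 4.49 to 6.85 between control pairs. Total counts were 1181392 to 2867502 with T.mu and 1190436 to 1765649 in controls. Over 10103 genes, the share of G and C bases in transcripts had Spearman correlations with log2 differences between libraries. These were -0.43 for T.mu replicate 2 minus 1, -0.39 for 4 minus 1 and -0.35 for 4 minus 3. They were -0.06 for 3 minus 1 and 0.03 for 4 minus 2, and -0.25 to 0.13 between controls. With the day 48 log2 fold change it was 0.20, and its part in the gene results was not tested. What sets the T.mu pairs apart is not given in the labels.

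Several of the risen genes followed the same order. Of the 28 risen genes, 17 (60.7%) were higher in T.mu replicates 2 and 4 than in both 1 and 3, and 5 (17.9%) were lower, against 27.5% and 24.2% of all genes tested. The 17 include the 3 gasdermin C genes, Reg4, Pnliprp2, Pla2g4c, Ifit1, Slfn4 and Cd74, and the 5 are Lgals3bp, Lgals9, Ifi27l2b, Cd177 and Oasl1. With the logit of the mitochondrial share as a covariate, 40 genes passed (35 higher and 5 lower). Without T.mu replicates 1 and 3, 31 passed (27 higher and 4 lower), and without T.mu replicates 2 and 4, 44 passed (21 higher and 23 lower). These were partly other genes: 7 of the 30 missed the threshold without replicates 1 and 3, and 17 of the 30 without replicates 2 and 4. The 7 were Isg15 (adjusted p = 0.131), Oas1a (0.242), Cd177 (0.998) and, of the interferon-induced genes high in replicates 1 and 3, Lgals3bp (0.0776), Lgals9 (0.138), Ifi27l2b (0.5998) and Oasl1 (0.712). The 17 were the 3 gasdermin C genes, Reg4 (0.491), Pla2g4c (0.536), Pnliprp2 (0.346), Upp1 (0.0717), Ly6a (0.0641), both lowered genes (Col8a1 0.0654, Ccn3 0.193) and the interferon-induced genes Slfn4, Ifit1 and Ifitm3 (0.0614 each), Xaf1 (0.0717), Zbp1 (0.106), Irgm1 (0.149) and Ddx60 (0.606). These 3 fits were chosen after seeing the data, and the part of the library difference in each single result was not tested.

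**Figure D2:**
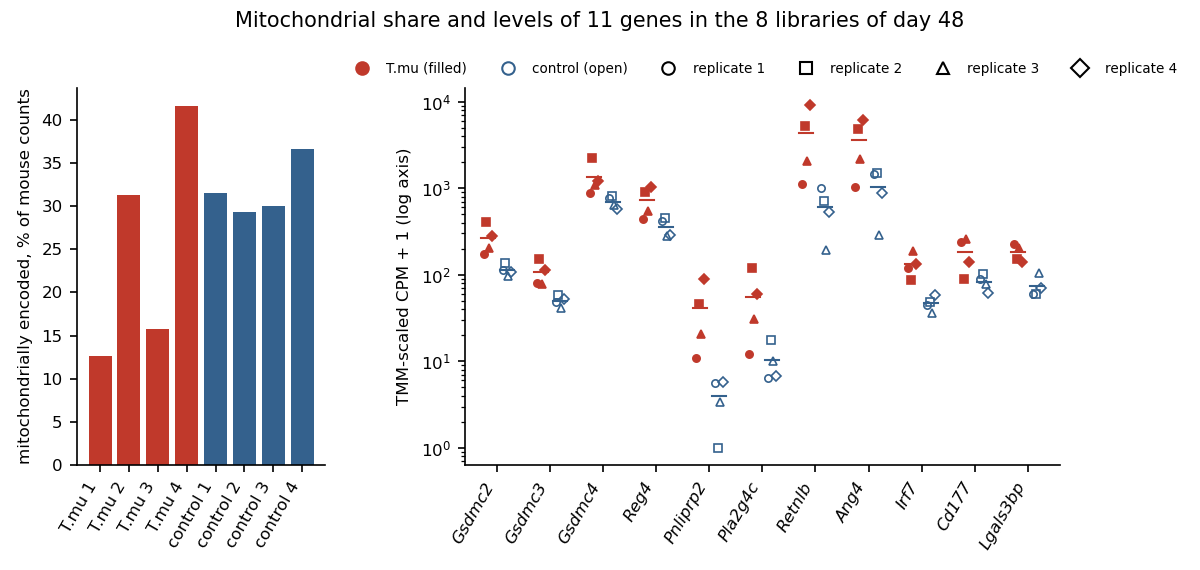
Left, share of mouse counts on mitochondrially encoded genes as bars for the 8 libraries of day 48. Right, TMM-scaled CPM + 1 on a log axis of 11 genes, T.mu libraries filled and control libraries open. The share is lower in T.mu replicates 1 and 3 (12.6% and 15.8%) than in 2 and 4 (31.3% and 41.6%), and the gasdermin C genes, Reg4, Pnliprp2, Pla2g4c, Retnlb and Ang4 are lower in replicates 1 and 3 as well, while Cd177 and Lgals3bp are higher there.

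The promoters of 6 risen genes with the smallest p-values that have an entry in the RefSeq promoter table (GRCm38.p6) are shown, since a shared sequence element is the best known feature of interferon-induced genes. Each run is the 120 bases before the start site, 5′ to 3′ on the gene's strand. The positions are chr5:120777660-120777779 (minus strand) for Oas3, chr19:34640769-34640888 (plus) for Ifit1, chr7:141266425-141266544 (minus) for Irf7, chr11:118401960-118402079 (minus) for Lgals3bp, chr11:83175066-83175185 (plus) for Slfn4 and chr5:114896814-114896933 (plus) for Oasl2, whose RefSeq start matched no transcript start of GENCODE M21. Capitals mark each match to GAAA, any 2 bases (NN) and GAAA, the core of the interferon-stimulated response element (ISRE), on either strand.
Oas3: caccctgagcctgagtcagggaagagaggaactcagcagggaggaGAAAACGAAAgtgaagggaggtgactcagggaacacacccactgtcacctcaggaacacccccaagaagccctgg
Ifit1: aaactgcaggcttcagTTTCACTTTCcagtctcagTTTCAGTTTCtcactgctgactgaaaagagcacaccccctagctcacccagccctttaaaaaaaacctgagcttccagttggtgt
Irf7: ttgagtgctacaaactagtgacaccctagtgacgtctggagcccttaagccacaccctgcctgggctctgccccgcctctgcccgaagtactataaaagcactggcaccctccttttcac
Lgals3bp: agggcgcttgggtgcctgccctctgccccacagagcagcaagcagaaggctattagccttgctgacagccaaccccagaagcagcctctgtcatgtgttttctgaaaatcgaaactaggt
Slfn4: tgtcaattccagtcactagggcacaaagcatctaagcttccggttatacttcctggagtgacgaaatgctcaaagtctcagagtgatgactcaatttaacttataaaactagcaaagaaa
Oasl2: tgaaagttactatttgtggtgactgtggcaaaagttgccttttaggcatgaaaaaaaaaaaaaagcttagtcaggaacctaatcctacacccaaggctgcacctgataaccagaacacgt

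The ISRE core was found in 7 of the 20 risen genes with a promoter entry (35%), searched on both strands in the 250 bases before the start, and in 3.25% of the 7840 tested genes with an entry. The 7 were Oas3, Ifit1, Lgals9, Irgm1, Oas1a, Isg15 and Ddx60. The match in Oas3 begins 75 bases before the start and those in Ifit1 104 and 85 bases before it. The core of the gamma-activated sequence (TTC, any 3 bases and GAA) was found in 1 of the 20 (Oas1a, 5.0%) against 7.14% of the tested genes. Both motifs were searched as plain letters, overlapping matches were counted as 1 gene, and a match is a description, not a binding site. Among the 6 promoters shown, those of Irf7, Lgals3bp, Slfn4 and Oasl2 do not hold these letters in this window.

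Oligoadenylate synthetases sense double-stranded RNA, and 4 members of this family rose. Oasl2 had 89.8, 107, 69.4 and 103 CPM in T.mu libraries against 10.7, 5.31, 18.03 and 24.6 CPM in control libraries (adjusted p = 1.76e-07). All 4 T.mu libraries lay above the 4 controls. Oas3 had 14.5, 28.0, 30.4 and 33.7 CPM against 5.34, 3.54, 2.404 and 2.84 CPM in controls (7.17-fold higher, log2 2.84 ± 0.47, adjusted p = 0.000234). Oas1a was 2.94-fold higher and Oasl1 3.36-fold higher, both without overlap. Oas1g, a close copy of Oas1a, had 33.9, 22.4, 14.96 and 14.9 CPM against 4.01, 5.31, 6.01 and 6.63 CPM in controls but missed the threshold (log2 1.99 ± 0.49, adjusted p = 0.0541), and reads could be split between these copies by the counting. The calls of Oas1a and Oasl1 depended on single libraries: adjusted p was 0.0871 for Oas1a when T.mu replicate 1 was omitted, 0.0704 for omission of control replicate 1 and 0.0857 for control replicate 4, for Oasl1 0.133 and 0.156 without T.mu replicates 1 and 3 and 0.142, 0.328 and 0.195 without control replicates 1, 2 and 3. Oasl1 also missed the threshold with the mitochondrial share as a covariate (0.0751).

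Irf7, the transcription factor that amplifies interferon responses, had 118, 86.0, 187 and 132 CPM in T.mu libraries against 43.4, 47.8, 34.9 and 56.9 CPM in control libraries (2.89-fold higher, log2 1.53 ± 0.25, adjusted p = 0.000187). Irf9, another interferon regulatory factor, had a log2 fold change of 0.76 ± 0.36 with overlapping groups and missed the threshold (adjusted p = 0.996). Ifit1, which binds foreign RNA caps, had 35.5, 76.7, 40.6 and 83.3 CPM with T.mu against 10.7, 15.9, 7.21 and 20.8 CPM in controls (4.34-fold higher, adjusted p = 0.000496). Its neighbour Ifit3 had few counts, with log2 0.64 ± 0.93 and overlapping groups. The viral entry restriction gene Ifitm3 was 3.13-fold higher (adjusted p = 0.000801), with 41.5 to 98.2 CPM against 15.9 to 28.4 CPM. Rtp4, an interferon-induced receptor chaperone, was 4.07-fold higher (adjusted p = 0.000496), at 37.4 to 89.8 CPM against 6.68 to 18.03 CPM. Isg15, the ubiquitin-like modifier, had 10.5, 5.61, 8.55 and 13.9 CPM with T.mu against 0, 3.54, 1.20 and 0 CPM in controls (adjusted p = 0.0255), or 68 counts against 6. Its call ended with a block for litter and day (adjusted p = 0.0651), and so did that of the RNA sensor gene Ddx60 (adjusted p = 0.0371 without the block and 0.0783 with it). Isg15 also lost its call when T.mu replicate 1 (0.0781) or 4 (0.0869) was left out, or control replicate 1 (0.232), 3 (0.163) or 4 (0.151), and had adjusted p = 0.0543 with limma voom.

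The paralogs Ifi27l2a and Ifi27l2b, small interferon-induced membrane proteins, both rose, though reads of near-identical copies may be shared. Ifi27l2a had 32.3, 43.0, 17.1 and 32.7 CPM in T.mu libraries against 4.01, 0, 3.61 and 5.69 CPM in control libraries (8.96-fold higher, log2 3.16 ± 0.48, adjusted p = 9.17e-05). Ifi27l2b had 125, 91.6, 135 and 90.3 CPM against 60.1, 48.7, 53.5 and 49.3 CPM (2.10-fold higher, adjusted p = 0.00733). Lgals3bp, a secreted galectin ligand, was 2.47-fold higher at 227, 151, 204 and 138 CPM against 58.8, 59.3, 103 and 70.1 CPM (adjusted p = 0.000397), and Lgals9, which encodes galectin-9, 2.41-fold higher (adjusted p = 0.000533). Xaf1, an apoptosis regulator, was 4.85-fold higher (adjusted p = 0.00505), and Zbp1, a sensor of Z-form nucleic acid that can start cell death, 2.92-fold higher (adjusted p = 0.0223). Slfn4, of the interferon-inducible Schlafen family, was raised 3.44-fold at 51.7, 98.2, 59.3 and 129 CPM against 23.4, 23.03, 16.2 and 35.1 CPM (adjusted p = 0.000397). Leaving out control replicate 3 ended the calls of Xaf1 (0.0891), Ifi27l2b (0.0535) and Zbp1 (0.309), and leaving out T.mu replicate 2 that of Xaf1 (0.0799). Ifi27l2b also lost its call when T.mu replicate 3 (0.0734) or control replicate 2 (0.0513) was omitted, and Zbp1 on omission of either T.mu replicate 3 or 4 (0.0551 and 0.149) or either control replicate 1 or 2 (0.117 and 0.193).

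Of the 48 tested members of the type I interferon list, 15 rose and none fell. A positive log2 fold change was seen in 47, and 24 had every T.mu library above every control library. Over all 10119 genes tested, 5243 had a positive log2 fold change and 211 (2.09%) had every T.mu library above every control library. The list's median log2 fold change was 1.29, against 0.02 over all genes tested. Summed levels of the 52 listed genes were 1961 to 2058 CPM with T.mu and 853 to 965 CPM in controls. The 4 T.mu libraries were nearly alike in this sum. Members that missed the threshold with no overlap included Ifi44 (14.96 to 25.3 CPM against 2.404 to 11.4 CPM, adjusted p = 0.111), Ifit2 (4.28 to 22.8 CPM against 0 to 1.90 CPM, adjusted p = 0.168) and Rnf213 (80.0 to 114 CPM against 47.4 to 56.7 CPM, adjusted p = 0.0993).

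Genes tied to interferon gamma and antigen presentation gave fewer calls. Of 11 tested members of the list of interferon gamma GTPases and chemokines, only Irgm1, an immunity-related GTPase, rose (51.3, 82.3, 49.1 and 71.4 CPM in T.mu libraries against 24.7, 23.03, 24.04 and 27.5 CPM in control libraries, 2.53-fold higher, adjusted p = 0.00733). The list's median log2 fold change was 1.11. Irgm1 lost its call without T.mu replicate 2 (adjusted p = 0.082) or control replicate 3 (0.0642). The related GTPase genes Ifi47 (log2 1.41 ± 0.37, adjusted p = 0.0993) and Igtp (log2 1.84 ± 0.56, adjusted p = 0.329) missed the threshold without overlap. Of 15 tested genes of MHC class I loading, none passed, yet all 15 had positive log2 fold changes and 6 had every T.mu library above every control library, with a median of 0.61. B2m, the MHC class I light chain, had 1296, 2859, 1559 and 2394 CPM with T.mu against 972, 1257, 1198 and 1127 CPM in controls (log2 0.83 ± 0.24, adjusted p = 0.235; 1.74e-05 with the mitochondrial share as a covariate). The immunoproteasome subunit gene Psmb8 (log2 1.18 ± 0.34, adjusted p = 0.235) and the peptide transporter gene Tap1 (log2 1.09 ± 0.34, adjusted p = 0.362) missed the threshold as well.

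Cd74 rose most on the fold scale. It had 23.7, 67.3, 16.0 and 24.8 CPM in T.mu libraries (199 counts) against 0, 7.08, 1.20 and 0 CPM in control libraries (10 counts), 15.9-fold higher (log2 4.00 ± 0.68, adjusted p = 0.00149). The groups did not overlap. H2-Ab1, the class II beta chain, had 25.01, 16.8, 21.4 and 29.8 CPM with T.mu against 7.34, 10.6, 12.0 and 3.79 CPM in controls and missed the threshold (log2 1.42 ± 0.44, adjusted p = 0.362). H2-Aa, the alpha chain, had overlapping groups (log2 1.80 ± 0.83, adjusted p = 0.996). All 6 tested class II genes had positive log2 fold changes, with a median of 1.34, and Ciita, their transcriptional activator, was too low to be tested (21 counts with T.mu and 8 in controls). The Cd74 call held in all 8 fits without a single library (adjusted p at most 0.029) and ended without the libraries under 400000 counts, all of other days (0.0704). B cells and myeloid cells also express Cd74. Of 5 tested B and plasma cell markers none passed, 4 had positive log2 fold changes and the median was 1.02. Igha had 24.02, 7.48, 13.4 and 20.8 CPM with T.mu against 8.01, 4.43, 8.41 and 3.79 CPM in controls (log2 1.38 ± 0.62, unadjusted p = 0.0288, adjusted p = 0.996 by edgeR), Igkc log2 1.14 ± 0.62 and Jchain log2 1.02 ± 0.80. The B cell gene Ms4a1 had 0 to 3.74 CPM with T.mu and 1.20 to 6.63 CPM in controls, and the myeloid gene Itgax 0 to 3.97 CPM with T.mu and 0 to 2.84 CPM in controls. Summed B and plasma cell markers were 253 to 358 CPM with T.mu and 265 to 315 CPM in controls, and summed macrophage and dendritic cell markers 243 to 331 CPM with T.mu and 234 to 288 CPM in controls. Their part in the Cd74 result was not tested.

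Gasdermin C genes, whose products can form membrane pores, rose together. Gsdmc2 had 171, 409, 204 and 281 CPM in T.mu libraries against 114, 136, 95.6 and 106 CPM in control libraries (2.35-fold higher, log2 1.23 ± 0.25, adjusted p = 0.00651). Gsdmc3 had 80.3, 152, 78.0 and 112 CPM against 48.1, 56.7, 40.3 and 51.2 CPM (2.14-fold higher, adjusted p = 0.0371). Gsdmc4 had 884, 2229, 1085 and 1210.5 CPM against 769, 821, 645 and 571 CPM (1.93-fold higher, log2 0.94 ± 0.23, adjusted p = 0.041). The groups did not overlap in any of the 3 genes, and T.mu replicate 2 was the highest library in each. Gsdmc itself was too low to be tested, at 18 counts with T.mu and 4 in controls. These genes are neighbouring near-identical copies, so how the counting split reads between them is uncertain and they do not count as 3 independent results. Gsdmd, the gasdermin cleaved by inflammatory caspases, had 101, 89.8, 84.4 and 73.4 CPM against 61.4, 38.1, 49.9 and 55.9 CPM in controls, also without overlap (log2 0.77 ± 0.23, adjusted p = 0.345). Without T.mu replicate 2, the adjusted p was 0.147, 0.39 and 0.663 for Gsdmc2, Gsdmc3 and Gsdmc4, and without control replicate 3 it was 0.0761, 0.309 and 0.292. Gsdmc3 and Gsdmc4 also lost their calls without control replicate 1 (0.189 and 0.127), 2 (0.0794 each) or 4 (0.124 and 0.298), and Gsdmc3 on omitting T.mu replicate 4 (0.105) or the filter on low counts (0.0778). Gsdmc4 had adjusted p = 0.0569 with DESeq2, 0.0564 with limma voom and 0.0587 in a fit of the 8 compared libraries alone. With the mitochondrial share as a covariate all 3 genes passed (adjusted p = 2.65e-07 for Gsdmc2, 0.00023 for Gsdmc3 and 5.78e-05 for Gsdmc4), and without T.mu replicates 2 and 4 none did (0.212, 0.349 and 0.435 in the same order).

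Inflammasome genes gave no call: 0 of 16 tested members passed, 11 had positive log2 fold changes and the median was 0.16. Il18, an epithelial cytokine activated by caspase-1, had 61.5, 165, 83.9 and 71.4 CPM with T.mu against 97.5, 131, 137 and 167 CPM in controls, with overlapping groups (log2 -0.49 ± 0.29, adjusted p = 0.996). Casp1 had a log2 fold change of -0.04 ± 0.23, the adaptor gene Pycard of 0.17 ± 0.20 and the sensor gene Nlrp6 of 0.29 ± 0.22 (adjusted p = 0.996 each). Casp1 and Nlrp6 changed sign with the mitochondrial share as a covariate (0.20 and -0.04).

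Of the secreted lectins and goblet cell products, Reg4 passed the threshold. Reg4, a secreted lectin, had 437, 907, 547 and 1029.9 CPM in T.mu libraries against 417, 449, 279 and 287 CPM in control libraries (2.04-fold higher, log2 1.03 ± 0.23, adjusted p = 0.0223). T.mu replicate 1 lay below control replicate 2. The call was lost on omitting T.mu replicate 2 (0.2002), T.mu replicate 4 (0.237), control replicate 3 (0.287) or control replicate 4 (0.206). Retnlb, a goblet cell product induced by type 2 cytokines, had 1126, 5286, 2066 and 9103 CPM with T.mu against 996, 711, 192 and 536 CPM in controls. All T.mu libraries lay above all controls, but the gene missed the threshold (log2 2.85 ± 0.83, adjusted p = 0.53). It passed with DESeq2 (adjusted p = 0.0439), limma voom (0.00343) and the mitochondrial share as a covariate (0.0451), and had adjusted p = 0.921 with the block for litter and day. Ang4, an antimicrobial ribonuclease, had 1042, 4844, 2204 and 6179 CPM with T.mu against 1464, 1487, 287 and 878 CPM in controls, with overlap (log2 1.79 ± 1.11, adjusted p = 0.996). The antimicrobial lectin genes Reg3b (log2 -0.55 ± 0.76) and Reg3g (log2 -0.31 ± 0.70) overlapped as well (adjusted p = 0.996 each).

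Of 31 goblet cell genes tested, none passed, with a median log2 fold change of -0.02 and 14 positive values. Within the list, mucus genes lay on both sides. The chloride channel regulator gene Clca1 had 3803, 4292, 5182 and 3221 CPM in T.mu libraries against 3018, 2913, 1858 and 2086 CPM in control libraries (log2 0.74 ± 0.30, adjusted p = 0.928), and the mucus protein gene Fcgbp also had every T.mu library above every control library (log2 0.49 ± 0.22, adjusted p = 0.996). Muc2, the main gel-forming mucin, had 12175, 11351, 10500.0 and 11444 CPM with T.mu against 16915, 14348, 17221 and 13826 CPM in controls, every T.mu library below every control library (log2 -0.45 ± 0.21, adjusted p = 0.996). The mucin glycosylation gene Gcnt3 lay below controls in the same way (log2 -0.50 ± 0.20, adjusted p = 0.912). Of 12 tested genes of the type 2 list none passed, 10 were positive and the median was 0.40.

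Other epithelial cell types showed no calls. Of 12 enteroendocrine genes tested, 0 passed and 2 were positive, with a median log2 fold change of -0.52. Their summed levels, over 23 genes, were 447 to 518 CPM with T.mu and 578 to 785 CPM in controls, without overlap. The granin gene Chgb had 52.0, 30.9, 86.5 and 31.8 CPM with T.mu against 85.5, 95.6, 76.9 and 91.0 CPM (log2 -0.76 ± 0.26, adjusted p = 0.619), and the hormone gene Insl5 log2 -0.55 ± 0.24 (adjusted p = 0.98). The hormone genes Cck (log2 1.17 ± 0.66) and Sct (log2 0.69 ± 0.31) went the other way (adjusted p = 0.996 each by edgeR). Cck had every T.mu library above every control library. Of 9 tuft cell genes tested none passed and 5 were positive (median 0.07). The tuft kinase gene Dclk1 had log2 -0.02 ± 0.39. The ion channel gene Trpm5, also of tuft cells, had log2 1.16 ± 0.60 with overlapping groups (adjusted p = 0.996 by edgeR). The cytokine gene Il25 had 4 counts with T.mu and 0 in controls and was not tested. None of 28 colonocyte genes (median 0.07) or 39 stem and proliferation genes (median 0.11) passed.

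Ly6a, an interferon-induced surface protein, had 303, 494, 314 and 366 CPM in T.mu libraries against 154, 145, 157 and 186 CPM in control libraries (2.30-fold higher, log2 1.20 ± 0.24, adjusted p = 0.00337). The 4 control libraries spanned 145 to 186 CPM, below every T.mu library. Cd177, best known as a neutrophil surface gene, had 239, 87.9, 259.6 and 139 CPM with T.mu against 88.1, 102, 76.3 and 60.6 CPM in controls (2.24-fold higher, adjusted p = 0.00918), with T.mu replicate 2 inside the control range. Omitting T.mu replicate 1 (0.0871), T.mu replicate 3 (0.167), control replicate 3 (0.088) or control replicate 4 (0.124) ended the call, as did the fit with the mitochondrial share as a covariate (0.0862). The summed neutrophil markers, Cd177 among them, were 169 to 303 CPM with T.mu and 126 to 155 CPM in controls. Over the other 15 members they were 41.1 to 91.3 CPM with T.mu and 38.1 to 81.5 CPM in controls, and the defining genes S100a8 and S100a9 were near 0 in both arms.

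Of the 30 genes, 4 belonged to none of the lists. Pla2g4c, a cytosolic phospholipase A2, had 11.2, 119.7, 29.9 and 59.5 CPM in T.mu libraries against 5.34, 16.8, 9.01 and 5.69 CPM in control libraries (5.83-fold higher, log2 2.54 ± 0.52, adjusted p = 0.00733). T.mu replicate 1 lay inside the control range, and the call ended without T.mu replicate 2 (0.32), control replicate 1 (0.0704) or control replicate 3 (0.0642), with limma voom (0.2296), in a fit of the 8 compared libraries alone (0.133) and with counts halved (0.161). Pnliprp2, a pancreatic lipase-related gene, had 9.87, 44.9, 19.8 and 88.3 CPM with T.mu against 4.67, 0, 2.404 and 4.74 CPM in controls (12.9-fold higher, log2 3.69 ± 0.77, adjusted p = 0.0166), but did not pass with DESeq2 (0.507) or limma voom (0.147), nor on omission of T.mu replicate 4 (0.149), control replicate 2 (0.0513), control replicate 3 (0.163) or the libraries under 400000 counts (0.0602). Upp1, uridine phosphorylase, was 2.36-fold higher (adjusted p = 0.0272), and its call was lost on omitting T.mu replicate 1 (0.089), T.mu replicate 2 (0.267) or any of control replicates 2 to 4 (0.332, 0.242 and 0.0815), with limma voom (0.0637) and in a fit of the 8 libraries alone (0.0521). Ddx60, the fourth, was 2.50-fold higher at 31.3, 77.6, 39.0 and 95.3 CPM against 28.0, 20.4, 18.03 and 28.4 CPM. Its call ended on omitting T.mu replicate 2 (0.2602) or 4 (0.403), any of control replicates 1 to 4 (0.0891, 0.212, 0.309 and 0.0695), with no filter on low counts (0.0642), with DESeq2 (0.0569), with limma voom (0.2095) and in a fit of the 8 libraries alone (0.0587).

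The lowered genes encode extracellular proteins. Col8a1, a short-chain collagen, had 9.54, 8.41, 10.7 and 3.97 CPM in T.mu libraries against 30.7, 28.3, 38.5 and 37.9 CPM in control libraries (3.95-fold lower, log2 -1.98 ± 0.41, adjusted p = 0.00588). Ccn3, a matricellular growth regulator, had 112, 81.3, 114 and 87.3 CPM with T.mu against 166, 186, 195 and 205 CPM in controls (1.89-fold lower, log2 -0.92 ± 0.21, adjusted p = 0.0223). Neither gene's groups overlapped. Both were on the fibroblast and matrix list, of which 10 members were tested and the median log2 fold change was 0.10. Its summed levels were 366 to 430 CPM with T.mu and 407 to 496 CPM in controls with Col8a1 and Ccn3 included, and 244 to 308 CPM with T.mu and 210 to 253 CPM in controls over the other 32 members. The defining fibroblast gene Dcn had 0.534 to 2.98 CPM with T.mu and 2.84 to 6.20 CPM in controls, Col1a1 0 to 4.96 CPM with T.mu and 0 to 5.34 CPM in controls, and Col3a1 4.27 to 9.92 CPM with T.mu and 2.66 to 9.01 CPM in controls. Tsku, a secreted proteoglycan, missed the threshold at 7.94 to 17.1 CPM against 28.2 to 34.7 CPM (log2 -1.30 ± 0.38, adjusted p = 0.235). Ccn3 lost its call on omitting T.mu replicates 2 or 4 (0.147 and 0.149), any of control replicates 2 to 4 (0.0622, 0.122 and 0.171), and with no filter on low counts (0.189).

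Earlier days gave a similar number of genes in epithelium with fewer libraries. At day 3, 36 of 10119 genes passed (0.356%), 33 higher (0.326%) and 3 lower (0.0296%), and at day 14, 51 passed (0.504%), 34 higher (0.336%) and 17 lower (0.168%). Of the 30 genes of day 48, 14 also passed in the same direction at day 3, 18 at day 14 and 12 on both days. Irf7 had a log2 fold change of 2.80 ± 0.33 at day 3, 1.38 ± 0.28 at day 14 and 1.53 ± 0.25 at day 48. Lgals3bp had 2.38 ± 0.29, 1.73 ± 0.26 and 1.31 ± 0.22 on these days. Cd74 had -0.58 ± 0.93 at day 3 (adjusted p = 0.878), 3.93 ± 0.68 at day 14 and 4.00 ± 0.68 at day 48. The gasdermin C genes and Reg4 had passed on neither earlier day: Gsdmc2 had 0.06 ± 0.34 at day 3 and 0.28 ± 0.29 at day 14, Gsdmc3 -0.60 ± 0.37 and 0.05 ± 0.31, Gsdmc4 0.07 ± 0.27 and 0.43 ± 0.26, and Reg4 -0.29 ± 0.28 and -0.14 ± 0.27.

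No difference between days passed its own test. For the day 48 effect minus the day 3 effect, 0 genes passed (0.0%) by edgeR's quasi-likelihood test, DESeq2 or limma voom, with 545 at an unadjusted p under 0.05 (5.39%). For the day 48 effect minus the day 14 effect 0 genes passed (0.0%) by these 3 tools, with 278 at an unadjusted p under 0.05 (2.75%). The difference from day 3 was 1.69 ± 0.45 for Gsdmc3, 1.32 ± 0.36 for Reg4, 4.58 ± 1.22 for Cd74 and -1.26 ± 0.41 for Irf7 (log2, adjusted p = 0.61 each). The difference from day 14 was 1.16 ± 0.36 for Reg4 and 0.07 ± 0.62 for Cd74. Without T.mu replicates 1 and 3, a choice made after seeing the data, 13 genes passed against day 3 and 10 against day 14. Reg4 was among both (adjusted p = 0.0156 and 0.035). The second index sequence in the labels of the epithelial libraries differs between days and is shared by both arms of a day, so day and index cannot be told apart in levels across days.

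**Figure D3:**
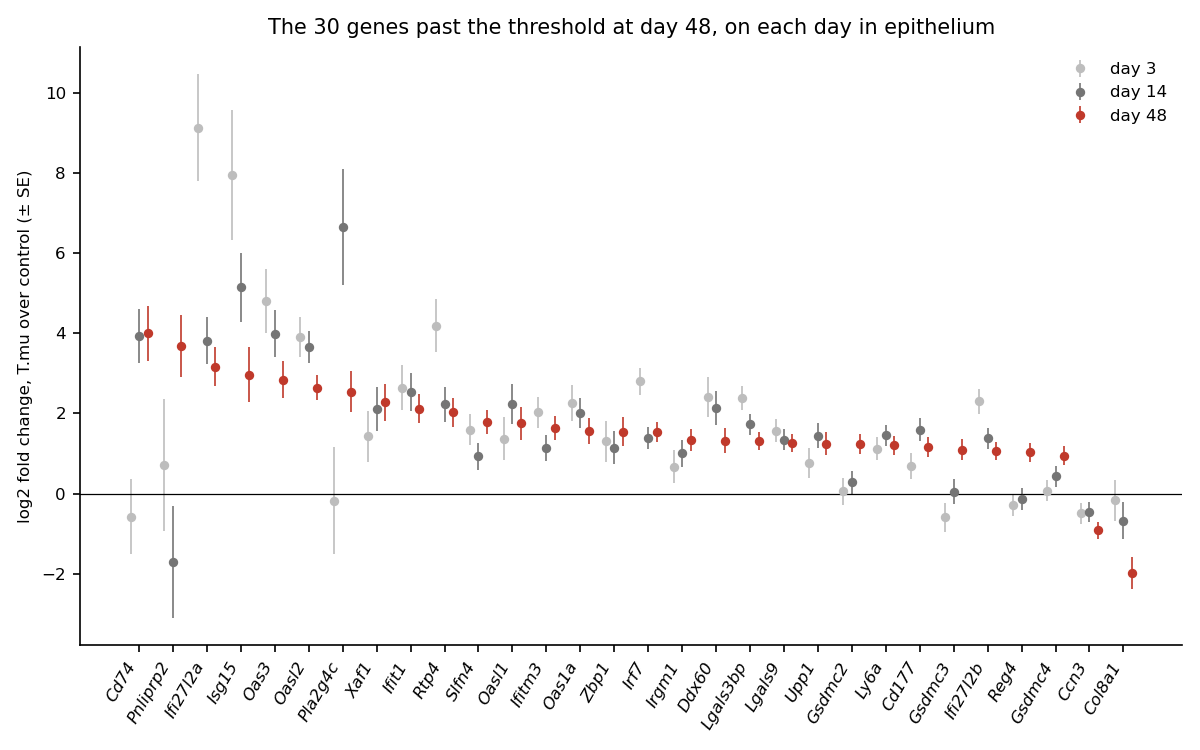
Log2 fold changes (T.mu over control, ± SE) of the 30 genes past the threshold at day 48, for epithelium at days 3, 14 and 48. Interferon genes lie above 0 on all 3 days, whereas Gsdmc2, Gsdmc3, Gsdmc4 and Reg4 lie near or below 0.43 at days 3 and 14 and between 0.94 and 1.23 at day 48.

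In total colonic tissue of day 48, 211 of 11696 genes passed (1.8%), 117 higher (1.0%) and 94 lower (0.804%). The second index sequence in the labels of these 4 T.mu libraries differs from that of the 4 control libraries, and total counts were 239291 to 1365299 with T.mu and 2223459 to 6756802 in controls, so arm, index and depth cannot be told apart in tissue. All 30 epithelial genes were tested there, 25 had positive log2 fold changes and 12 passed in the same direction. The 12 were interferon genes, among them Zbp1 (tissue log2 2.17 ± 0.29, adjusted p = 5.93e-06), Oasl2 (2.20 ± 0.41, adjusted p = 0.0111) and Slfn4 (1.86 ± 0.32, adjusted p = 0.000156). Outside that set, values in tissue were -0.14 ± 0.33 for Gsdmc2, 0.26 ± 0.39 for Gsdmc3, 0.46 ± 0.31 for Gsdmc4, -0.25 ± 0.34 for Reg4, -0.36 ± 0.27 for Ifi27l2a and 0.60 ± 0.53 for Col8a1. Tissue and epithelium were fitted separately and the difference between them was not tested. The amino acid transporter gene Slc6a14, among those with the smallest p in tissue (log2 1.31 ± 0.17, adjusted p = 1.27e-05), had log2 -0.14 ± 0.19 in epithelium (adjusted p = 0.996).

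**Figure D4:**
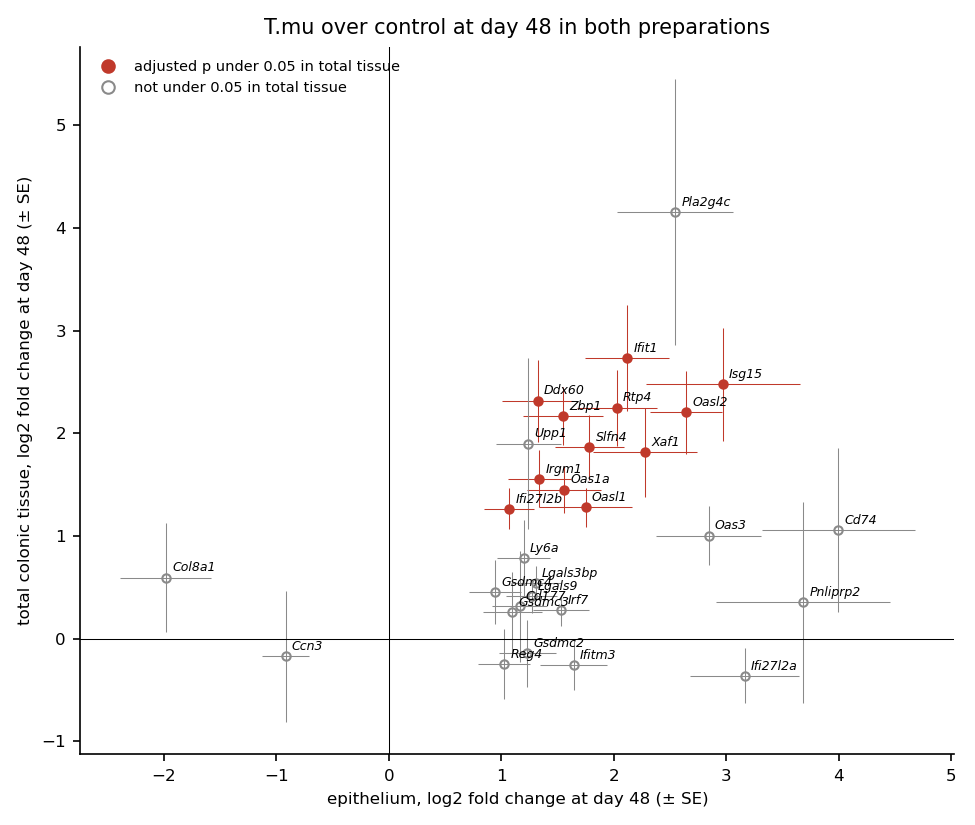
Log2 fold changes at day 48 (T.mu over control, ± SE) of the 30 epithelial genes in epithelium (horizontal) and total colonic tissue (vertical), with filled red circles for the 12 genes past the threshold in tissue. The red circles are interferon genes in the upper right, while Reg4, Gsdmc2, Ifitm3 and Ifi27l2a lie just below 0 in tissue.

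The deposited table has 1 entry that is not a mouse gene, whose identity the labels do not give. In epithelium at day 48 it had 417, 59.3, 45.2 and 76.3 CPM of all counts in T.mu libraries against 43.4, 36.2, 27.2 and 21.8 in control libraries, from 70 to 1196 and from 26 to 70 counts. Means were 149 ± 179 with T.mu and 32.1 ± 9.54 in controls (SD, n = 4 each; exact two-sided permutation p = 0.0286, the smallest that 4 against 4 can give). The 95% Poisson interval of T.mu replicate 3 (36.03 to 55.9) overlapped those of control replicates 1 (33.8 to 54.8) and 2 (26.5 to 48.2). It barely overlapped that of control replicate 3, whose upper limit was 36.04. The interval of T.mu replicate 2 (46.2 to 74.9) overlapped those of control replicates 1 and 2. Those of T.mu replicates 1 (394 to 441) and 4 (62.3 to 92.4) overlapped no control interval. These intervals cover counting error only and treat each count as independent. All of these counts were even, and halved counts would give wider intervals, so which intervals overlap is uncertain. Replicate 1 carried most of the T.mu signal, and the difference of means was 117 with it and 28.1 without it. In epithelium of days 3 and 14 the entry had 274 to 2073 CPM with T.mu and 35.2 to 71.5 CPM in controls. T.mu replicates 2 and 3 of day 48 lie inside that control range. Control libraries of total tissue, over all days, had 5.11 to 969 CPM.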

How the data were processed

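RNA from colonic epithelial cells was sequenced as 3′ digital gene expression libraries, per the labels' protocols. The authors deposited whole-number counts per gene, without normalization, 1 column per library. The submitters' processing notes name STAR and Subread. Versions, genome build, annotation, strand and molecular identifiers are not given in the sources used here. Of 45792 mouse gene IDs, 45143 (98.6%) had a GENCODE M21 symbol. The non-mouse entry (269150 of 69164307 counts, 0.389%) entered neither library sizes nor tests. Of values from 1 to 20, 61.2% to 76.5% were even in the libraries of day 48, and halving all counts was one of the alternatives.

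Counts were fitted with edgeR 4.0.16 (R 4.3.3) over all 20 epithelial libraries and 6 groups, which share the estimate of spread: filterByExpr (minimum count 10, minimum total 15), TMM scaling, robust quasi-likelihood, Benjamini-Hochberg adjustment over all genes tested and a threshold of 0.05. Differences between days were contrasts of the same fit. Total tissue had its own fit. Code was tested on simulated counts. Alternatives covered RLE scaling, no filter, DESeq2 1.42.0, limma 3.58.1 voom, fewer libraries, halved counts, ribosomal and mitochondrial RNA left out, and a block for litter by day. Litter numbers are shared by both arms per the labels, which pairs them. Deviations of same-numbered libraries from their group means correlated at -0.0412, -0.0769, 0.104 and 0.179. Those of differently numbered libraries correlated at -0.170 to 0.122.

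Named genes were all those past the threshold, a fixed list, up to 3 members per list with the smallest p, 10 without overlap that missed the threshold, and the 10 with the smallest p in the other contrasts. Members, lists and tests were chosen with earlier results of these data known. Promoter sequences are from RefSeq.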

Additional observations from a re-analysis of the deposited data

Results flagged for a closer look

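In groups of 4 libraries, 5 of 159 groups examined had a library far from the other 3 (gap over range above Dixon's 95% critical value). Chance gives about 1 in 20 groups. Il25 had 1.32 CPM in T.mu replicate 1 and 0 in the other T.mu libraries, from 4 counts. In controls, Cd74 had 7.08 CPM in replicate 2 against 0 to 1.20 CPM in the others, and its call held without that library. Control replicate 4 was high for H2-Aa, with 9.48 CPM against 1.34 to 2.404 CPM, and for Reg3g, with 448 CPM against 132 to 176 CPM. Il1b had 6.01 CPM in control replicate 3 against 0 to 0.886 CPM.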

How the results depend on the processing

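The count of 30 genes was 28 to 34 under the alternatives of tool, scaling, filter, samples in the fit, replicate block, depth, halved counts and omitted RNA classes, and 14 to 28 without single libraries. It was 14 without control replicate 3, as was the count of list members past the threshold (26; 14 to 24 without single libraries). The replicate block gave 31 genes (27 higher and 4 lower) and ended the calls of Isg15 and Ddx60. Of the 30 genes, 13 kept their call in all 8 fits without a single library. The day 48 effect minus the day 3 effect gave 0 to 1 genes without single libraries (Cd74 without control replicate 2), 1 with no filter on low counts (Cd74), 3 without libraries under 400000 counts (Xist, Reep6 and Gsdmc3) and 13 without T.mu replicates 1 and 3, which also gave 10 genes for the day 48 effect minus the day 14 effect. The count of 211 genes in total tissue was 101 with limma voom, 370 with DESeq2, 120 when only the compared libraries were fitted, 99 without libraries under 400000 counts and 99 to 291 without single libraries. No filter gave 82 higher and 180 lower there, and RLE scaling 170 and 89, against 117 and 94. The non-mouse difference was 28.1 to 152 without single libraries (exact permutation p = 0.0571, the smallest that 4 against 3 can give) and 117 in TMM-scaled mouse CPM (exact permutation p = 0.0571). The causes were not tested.

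Values that changed sign had all missed the threshold. Without T.mu replicates 1 and 3, log2 values were 0.0571 for Tff3, 0.29 for Casp1, -0.22 for Nlrp6, 0.0941 for Dclk1, -0.37 for Stat6, -0.0911 for Krt20, -0.0458 for Car1 and 0.12 for Lgr5. Without T.mu replicates 2 and 4 they were 0.23 for Reg3g, -0.99 for Ifit3 and -0.21 for Ptprc. With the mitochondrial share as a covariate they were 0.20 for Casp1, -0.0447 for Nlrp6, -0.11 for Stat6, 0.0247 for Lgr5 and 0.0339 for Mki67. Without single libraries, values ranged from -0.69 to 0.25 for Reg3g, from -0.24 to 0.0937 for Casp1, from -0.20 to 0.22 for Dclk1, from -0.03 to 1.53 for Ifit3, from -0.25 to 0.0111 for Pyy, from -0.0585 to 0.20 for Car1, from -0.19 to 0.0198 for Mki67. Genes with few counts, such as Gsdmc, Il25, Ciita and Il1b, could not be tested at this depth.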

Other observations

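Metabolic and housekeeping lists gave no calls at day 48. Over all 10119 genes tested, 5243 had a positive log2 fold change. Of 40 xenobiotic metabolism genes tested 12 had positive log2 fold changes, with a median of -0.11, and the carboxylesterase gene Ces2a had 104, 99.1, 84.4 and 58.5 CPM with T.mu against 140.2, 151, 148 and 129 CPM in controls (log2 -0.70 ± 0.23, adjusted p = 0.456 by edgeR). Cyp2c55, a cytochrome P450, also had every T.mu library below every control library (log2 -0.51 ± 0.20, adjusted p = 0.898). Of 79 cytoplasmic ribosomal protein genes 16 were positive, with a median of -0.21, and Rpl22 had log2 -0.61 ± 0.20 (adjusted p = 0.476). Summed levels over the 87 listed genes were 22116, 28417, 21235 and 29939 CPM with T.mu and 27681 to 33587 CPM in controls. T.mu replicates 2 and 4 thus lay inside the control range of this sum. Of 26 mitochondrially encoded genes tested none was positive (median -0.33), with the shares per library given above. Cholesterol synthesis (31 tested, median 0.09), fatty acid oxidation (27, median 0.02) and nuclear respiratory chain genes (72, median -0.02) lay near the median of all genes, 0.02.

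Some genes outside the interferon, gasdermin and goblet groups had no overlap between arms without passing. Ccl5, a chemokine of cytotoxic lymphocytes, had 16.5, 22.4, 12.8 and 27.8 CPM with T.mu against 9.35, 3.54, 4.81 and 3.79 CPM in controls (log2 1.82 ± 0.57, adjusted p = 0.362). The summed T cell markers, which include it, are higher with T.mu as well, and their part in it was not tested. Lypd8, an epithelial protein that keeps bacteria off the mucosa, had 11601, 14058, 10671 and 10085 CPM against 7790.5, 9201, 8732 and 7550.5 CPM in controls (log2 0.48 ± 0.21, adjusted p = 0.98). Duoxa2, the maturation factor of the oxidase Duox2, had 5.95 to 17.6 CPM with T.mu against 0.668 to 4.43 CPM in controls (log2 1.87 ± 0.64, adjusted p = 0.611).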
